A study of Mus musculus with 18 samples.

Results

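A panel of 10 named genes of skeletal muscle was followed across a set of mouse ganglion libraries. They are Acta1, Actn3, Tnnc2, Tnni2, Tnnt3, Mylpf, Myh1, Myh4, Ckm and Mb, chosen by their symbols in the deposited count table. All 10 of the 10 were present among the 15730 genes of that table. The filter on low counts removed none of these 15730 genes, so all 10 members passed it. The list was drawn up with earlier results on these libraries known, so the levels below are a description of how far muscle transcripts vary within and between groups.

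RNA was sequenced from the dorsal root ganglia of spinal levels L4 to L6, which hold the cell bodies of the sensory neurons that send axons into the sciatic nerve. All mice were of the C57BL/6 strain, 6 to 8 weeks old, and ganglia were taken 24 hours after surgery. Each of the 18 samples pooled ganglia of 2 mice, and each of the 6 groups held 3 samples. Sham_Saline had a sham procedure with saline and SNA_Saline had sciatic nerve injury with saline. SNA_NAC had the nerve injury in 30 mM of the thiol antioxidant N-acetyl-cysteine. Sham_H2O2 (Sham_H202 in the labels) had the sham procedure with 13 mM hydrogen peroxide. DCA had an injury of the spinal dorsal columns and LAM had a laminectomy, the removal of vertebral bone that gives access to the cord. Total counts per library ran from 6472476 to 42435331. The replicates are pools of different mice, so every p-value here judges a difference against the spread between such pools, animal and technical parts together. Reads carried no molecular identifiers, and intervals on counts cover counting error only.

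A skeletal muscle fibre contracts when calcium binds troponin C on the actin filament, which lets myosin heads pull that filament along. Fast fibres use their own versions of these proteins, and their genes are among the most highly expressed in limb and back muscle. Sensory ganglia consist of neurons, glia, vessels and connective tissue and contain no skeletal muscle fibres, while back muscle lies close to the spinal column. Acta1 encodes skeletal alpha-actin, and Actn3 encodes the alpha-actinin that anchors actin at the Z-disc of fast fibres. Tnnc2, Tnni2 and Tnnt3 encode the calcium-binding, inhibitory and tropomyosin-binding subunits of fast troponin. Mylpf encodes the fast regulatory myosin light chain, and Myh1 and Myh4 encode the heavy chains of the fast fibre types IIx and IIb. Ckm encodes muscle creatine kinase, which regenerates ATP, and Mb encodes myoglobin, the oxygen store that is richest in oxidative fibres and in the heart.

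In the GRCm38 annotation of GENCODE release M21, the members are all protein-coding genes. Acta1 lies at chr8:123891769-123894751 on the minus strand, Actn3 at chr19:4861216-4877909 (minus) and Mb at chr15:77015487-77050670 (minus). Tnnc2 lies at chr2:164777161-164779967 (minus). Ckm at chr7:19404776-19422841, Mylpf at chr7:127208890-127214298, Tnni2 at chr7:142441808-142444410 and Tnnt3 at chr7:142498836-142516009 share chromosome 7, all on the plus strand. Myh1 (chr11:67200052-67224575) and Myh4 (chr11:67238029-67260446) are neighbours on the plus strand, 13453 bases apart. Of the 100-base windows of the annotated transcripts, 9.73% of those of Myh1 also occur in another gene's transcripts, most often Myh2, and 3.85% of those of Myh4, most often Myh1. For the other 8 members the share was 0%. How reads shared between such genes were counted is not given in the sources used here, so the split between Myh1 and Myh4 is uncertain to that extent.

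The 250 bases before the start site were available for 7 of the 10 members in RefSeq's GRCm38.p6 set. Those of Acta1, Ckm, Myh1 and Myh4 are shown because they cover an actin, the energy enzyme with the widest span of levels and the neighbouring myosins. Capitals mark matches on either strand to 4 motifs: CAGCTG (an E-box, the type of site that the myogenic factor MyoD binds), TATAAA (the core promoter element at which TBP binds), the MEF2 site and the SRF site known as the CArG box. The promoters lie at chr8:123894776-123895025 (minus strand, Acta1), chr7:19410844-19411093 (plus, Ckm), chr11:67199852-67200101 (plus, Myh1) and chr11:67237562-67237811 (plus, Myh4), and are written 5′ to 3′.
Acta1: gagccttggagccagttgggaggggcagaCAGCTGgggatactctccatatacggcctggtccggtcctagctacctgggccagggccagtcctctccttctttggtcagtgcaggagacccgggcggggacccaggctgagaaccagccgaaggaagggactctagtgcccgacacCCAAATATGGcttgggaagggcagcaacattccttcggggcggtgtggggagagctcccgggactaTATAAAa
Ckm: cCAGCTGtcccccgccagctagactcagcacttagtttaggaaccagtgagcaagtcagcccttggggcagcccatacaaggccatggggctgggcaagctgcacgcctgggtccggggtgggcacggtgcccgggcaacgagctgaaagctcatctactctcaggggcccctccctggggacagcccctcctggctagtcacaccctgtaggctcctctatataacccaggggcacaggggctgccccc
Myh1: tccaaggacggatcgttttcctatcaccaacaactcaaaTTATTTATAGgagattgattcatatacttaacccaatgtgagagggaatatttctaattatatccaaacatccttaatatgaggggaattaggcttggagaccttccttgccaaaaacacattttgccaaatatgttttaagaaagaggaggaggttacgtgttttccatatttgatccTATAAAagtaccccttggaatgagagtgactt
Myh4: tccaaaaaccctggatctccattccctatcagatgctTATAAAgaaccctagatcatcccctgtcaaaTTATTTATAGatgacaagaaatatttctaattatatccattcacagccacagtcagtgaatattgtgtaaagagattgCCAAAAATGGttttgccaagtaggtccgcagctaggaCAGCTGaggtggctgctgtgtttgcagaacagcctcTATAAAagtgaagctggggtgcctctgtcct

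Distances here are from the RefSeq start of each window, which differs from the GENCODE gene start given above. The Ckm window lies inside the GENCODE span of Ckm, and the Myh1 window overlaps the first bases of that of Myh1. The CArG match of Acta1 ran from 73 to 64 bases before the start and that of Myh4 from 104 to 95. Myh1 and Myh4 held the same MEF2 match, TTATTTATAG, from 211 to 202 and from 182 to 173 bases before the start, and each of these contains a TATAAA match on the opposite strand. The longest run that these promoters of Myh1 and Myh4 share is 20 bases, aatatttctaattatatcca. Across 32851 promoter windows of the same length, CAGCTG occurred in 13.0%, TATAAA in 12.4%, the MEF2 site in 2.9% and the CArG box in 1.5%. Of the 7 matched members, 5 held CAGCTG, 3 held TATAAA, 2 held the MEF2 site and 2 held the CArG box. These matches describe the letters of the windows, and binding was not measured.

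Muscle transcripts were detected in every library, and their level differed most between libraries of one and the same group. The 10 members together held 137 to 36601 counts per library, which is 0.000959% to 0.155% of all counts. Their summed level in CPM (counts relative to library total, scaled with TMM factors) was 118.6, 1541 and 9.30 in Sham_Saline replicates 1, 2 and 3. It was 144.7, 30.5 and 357 in SNA_Saline, 133.7, 41.5 and 126.6 in SNA_NAC, and 73.7, 619.9 and 305 in Sham_H2O2. In LAM it was 201.3, 358 and 52.1, and in DCA 214.6, 166.6 and 130.1. The highest and the lowest of the 18 libraries were thus both Sham_Saline, 166-fold apart, and the ranges of all 6 groups overlapped.

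As group means the summed level was 556 ± 855 CPM in Sham_Saline, 177 ± 165 in SNA_Saline and 100.6 ± 51.3 in SNA_NAC (SD, n = 3 each). It was 333 ± 274 CPM in Sham_H2O2, 204 ± 153 in LAM and 170.4 ± 42.4 in DCA (SD, n = 3 each). DCA was the most even group, with a 1.65-fold range over its 3 libraries, followed by SNA_NAC with 3.22-fold. LAM spanned 6.88-fold, Sham_H2O2 8.41-fold and SNA_Saline 11.7-fold. These are bulk samples, in which fewer muscle cells and less RNA per cell cannot be told apart.

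**Figure D1:**
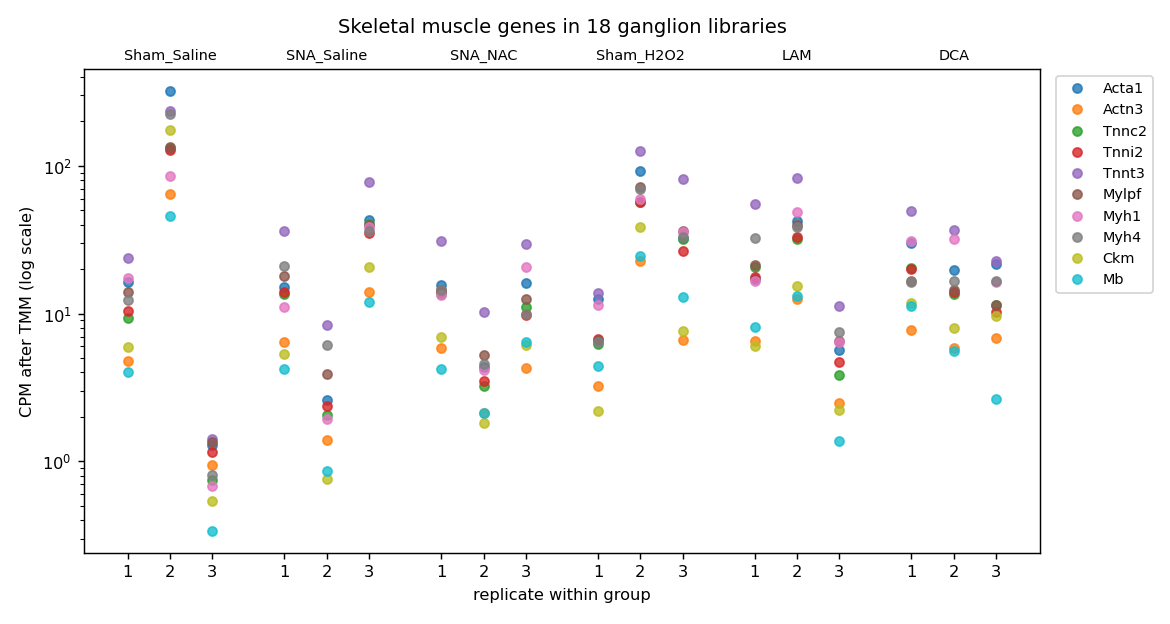
Level of each of the 10 muscle genes (CPM after TMM, log axis) in the 18 libraries, by group and replicate number, 1 point per gene and library. For each gene, Sham_Saline replicate 2 is at the top and Sham_Saline replicate 3 at the bottom. The points of 1 library also spread, as in SNA_Saline replicate 2, from 0.757 CPM for Ckm to 8.43 for Tnnt3. The ranges of many libraries overlap.

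Acta1 is the actin of the thin filament in skeletal muscle fibres. It stood at 16.5, 319.6 and 1.29 CPM in Sham_Saline, 15.0, 2.59 and 42.9 in SNA_Saline, and 15.6, 4.38 and 16.1 in SNA_NAC, in the order of the replicate numbers. In Sham_H2O2 it stood at 12.5, 92.5 and 32.4 CPM, in LAM at 17.1, 42.4 and 5.64, and in DCA at 29.9, 19.6 and 21.7. Its 2 extreme values lay in Sham_Saline, 248-fold apart, and no group separated from the other 5.

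Among the fast troponins, Tnnt3 reached 23.8, 236.4 and 1.43 CPM in Sham_Saline, 36.2, 8.43 and 77.3 in SNA_Saline, and 31.0, 10.3 and 29.8 in SNA_NAC. Sham_H2O2 gave 13.8, 125.7 and 81.7 CPM, LAM 55.0, 82.8 and 11.3, and DCA 49.5, 37.0 and 22.8. The 3 troponin subunits shared their highest and lowest library, as all 10 members did. Tnnc2 spanned 0.746 to 132.7 CPM (median 13.5) and Tnni2 1.15 to 127.8 CPM (median 14.0). Tnnc2 and Tnni2 were the pair of members whose ratio varied least over the 18 libraries, with an SD of 0.20 in log2. For Tnni2 this SD was 0.23 with Mylpf, which is not a troponin, and 0.34 with Tnnt3.

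Of the myosin heavy chains, Myh4 stood at 12.3, 222.7 and 0.814 CPM in Sham_Saline, 20.98, 6.16 and 36.4 in SNA_Saline, and 14.5, 4.57 and 9.95 in SNA_NAC. It stood at 6.47, 70.2 and 32.9 CPM in Sham_H2O2, 32.3, 38.8 and 7.49 in LAM, and 16.5, 16.7 and 16.7 in DCA. The 3 DCA values differed least of any member in any group. Myh1 was at 17.4, 85.8 and 0.679 CPM in Sham_Saline, 11.02, 1.95 and 38.5 in SNA_Saline, and 13.3, 4.13 and 20.7 in SNA_NAC. For Myh1, Sham_H2O2 gave 11.5, 59.6 and 35.9 CPM, LAM 16.7, 48.6 and 6.41, and DCA 31.0, 31.9 and 16.4. The other filament members, Mylpf and Actn3, spanned 1.36 to 133 CPM (median 14.5) and 0.950 to 64.2 CPM (median 6.18).

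Ckm had the widest span of the 10, 319-fold. It stood at 5.96, 173.4 and 0.543 CPM in Sham_Saline, 5.34, 0.757 and 20.8 in SNA_Saline, and 6.90, 1.81 and 6.10 in SNA_NAC. In Sham_H2O2 it stood at 2.199, 38.7 and 7.63 CPM, in LAM at 6.00, 15.4 and 2.22, and in DCA at 11.8, 8.03 and 9.71. The top library exceeded the next, Sham_H2O2 replicate 2, by 4.48-fold for Ckm and by 1.44-fold for Myh1, the largest and smallest such gaps among the members. Mb, the least abundant by CPM, ran from 0.339 to 45.5 CPM with a median of 4.97.

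The order of the extreme libraries was the same gene after gene. Sham_Saline replicate 2 was highest and Sham_H2O2 replicate 2 second highest for 10 of the 10 members, and Sham_Saline replicate 3 was lowest for 10 of the 10. SNA_Saline replicate 2 was second lowest for 9 members, and SNA_NAC replicate 2 for the remaining one, Myh4. Averaged as a score (the mean log2 CPM of the members, with a prior count of 2), the libraries spanned 7.05 to -0.042, a range of 7.09 in log2. Mean scores of the groups were 3.46 in Sham_Saline, 3.29 in SNA_Saline, 2.97 in SNA_NAC, 4.36 in Sham_H2O2, 3.72 in LAM and 3.85 in DCA, with SDs of 3.55, 1.86, 0.92, 1.55, 1.40 and 0.36 (n = 3 each). Ordered by mean, neighbouring groups differed by less than the larger of their SDs. The highest and the lowest, Sham_H2O2 and SNA_NAC, differed by less than the SD of Sham_H2O2 but more than that of SNA_NAC.

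Groups accounted for little of this variation. The share of a member's variance in log2 CPM that lay between the 6 groups was 6.32% to 14.6% (median 8.04%), against a median of 37.7% over all 15730 genes, and 0 of the 10 members exceeded that median. Means of 3 libraries differ by sampling alone, so part of such a share arises without any group effect. For the score the share was 7.52%. This share rested on single libraries: it was 30.4% without Sham_Saline replicate 2, 24.2% without Sham_Saline replicate 3, 13.0% without SNA_Saline replicate 3, 14.8% without Sham_H2O2 replicate 1, 3.68% without Sham_H2O2 replicate 2 and 4.90% without SNA_NAC replicate 2.

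Pooled over the 6 groups, the members were among the most variable genes of the table between replicates, though not within DCA alone. Their SD between replicates, pooled over the groups, was 1.61 to 2.198 in log2 CPM, against a median of 0.24 over all genes. Ckm ranked 1, Acta1 2, Tnnc2 3 and Myh4 4 of 15730 by this measure, and all 10 members were within the first 26. The biological coefficient of variation that edgeR estimated was 83.7% to 105% for the members and 17.4% in common for all genes. The spread was not equal between groups: the median SD of the members was 3.54 in Sham_Saline, 1.88 in SNA_Saline, 1.60 in Sham_H2O2, 1.43 in LAM, 0.96 in SNA_NAC and 0.37 in DCA. In DCA 18.2% of all genes had an SD above that member median. In each other group the share was between 0.0445% (Sham_Saline) and 0.356% (Sham_H2O2). Over all genes the median SD was also highest in Sham_Saline, at 0.29, followed by 0.25 in Sham_H2O2 and 0.20 in DCA. It was 0.18 in SNA_Saline, 0.14 in SNA_NAC and 0.12 in LAM, so DCA was not the most even group there. The main tests estimated the spread of each gene jointly over the 6 groups, so comparisons without Sham_Saline also carry its spread.

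**Figure D2:**
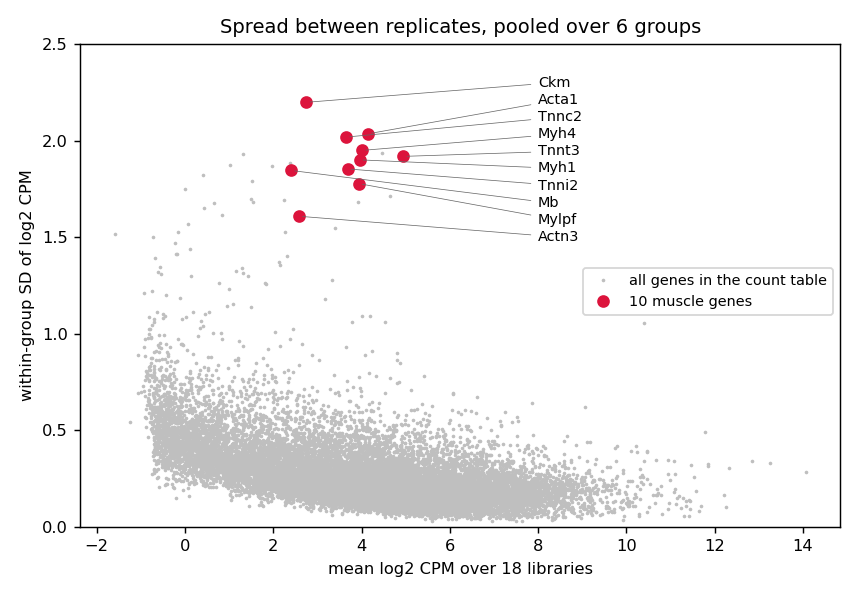
Standard deviation between replicates, pooled over the 6 groups (log2 CPM), against the mean level over 18 libraries (log2 CPM) for every gene of the count table; each grey point is 1 gene and red points are the 10 muscle genes. The red points lie between 1.61 and 2.198, far above the bulk of genes of the same mean level.

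Lanes and depth were examined beside these levels. Replicate number equals sequencing lane in the labels, with 1 library of each group per lane, so each lane is a set of 6. The SD of the score was 0.54 in lane 1 (2.70 to 4.23), 2.23 in lane 2 (1.30 to 7.05) and 1.83 in lane 3 (-0.042 to 4.97). The highest library and the second lowest shared lane 2. Over the 18 libraries the score and log2 total counts had Pearson's r = 0.16 and Spearman's rho = 0.06, and r = 0.31 without the deepest and the shallowest library. Any part of lane in the spread was not tested.

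The first comparison the design implies is sciatic injury against sham surgery, both with saline. In SNA_Saline against Sham_Saline, edgeR's quasi-likelihood test called 0 of the 10 members at an adjusted p under 0.05, with 2.73% of all genes called. At an unadjusted p under 0.05 the count was 0, and DESeq2 and limma on the FPKM values also called 0, here and in the 7 other comparisons below. The groups did not overlap for 0 members, against 19.1% of all genes. All 10 estimates were negative, with a median log2 fold change of -1.48 (-2.71 to -1.002, standard errors 1.03 to 1.34; edgeR adjusted p 0.239 to 0.570), and the median over all genes was -0.03. The log2 fold changes were -2.46 for Acta1 (standard error 1.25), -2.71 for Ckm (1.34), -1.88 for Myh4 (1.15), -1.10 for Tnnt3 (1.11) and -1.002 for Myh1 (1.08).

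That common direction rested on 1 control library. Without Sham_Saline replicate 2 all 10 estimates were positive, with a median of 1.41 (0.91 to 1.84) and still 0 called. In that fit Acta1 stood at 1.16 and Ckm at 1.43. Without SNA_Saline replicate 3, in contrast, all 10 were negative, with a median of -2.50. The score, which averages log2 values, differed by only -0.17 between these groups. By lane, SNA_Saline minus Sham_Saline was 0.22 in lane 1, -5.75 in lane 2 and 5.02 in lane 3. In lane 2 all 10 members were lower and in lane 3 all 10 were higher in the injured sample, each from 1 library per group.

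**Figure D3:**
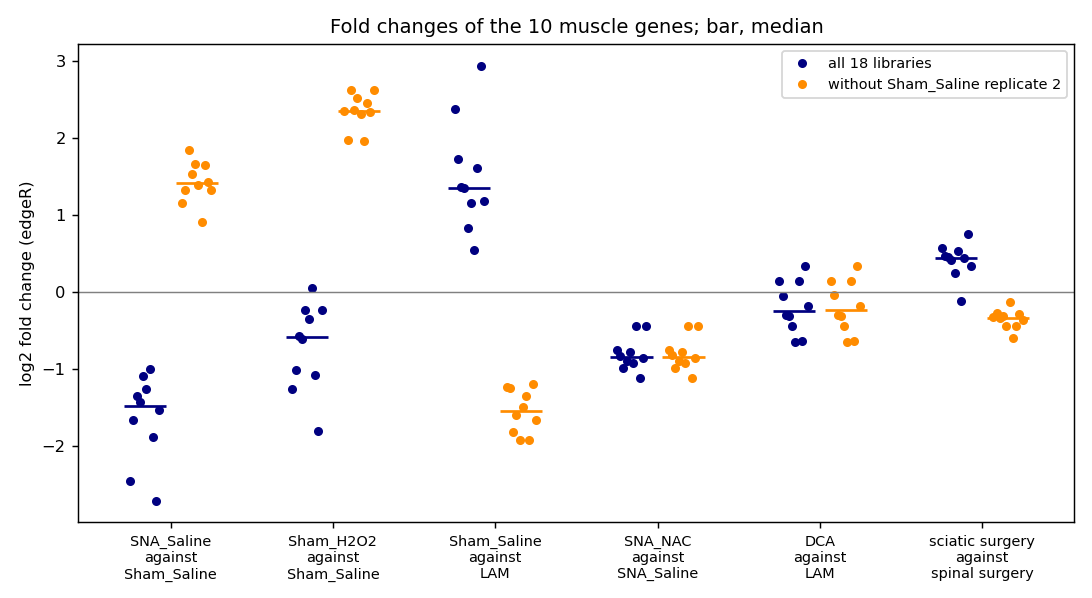
Log2 fold change (edgeR) of each of the 10 muscle genes in 6 comparisons, with all 18 libraries (blue) and without Sham_Saline replicate 2 (orange); each point is 1 gene and each bar is the median. In the 3 comparisons that use Sham_Saline directly the median moved from -1.48 to 1.41, from -0.59 to 2.36 and from 1.36 to -1.55.

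Spinal injury was compared with its own surgical control. In DCA against LAM, edgeR called 0 of the 10 members (0% of all genes called), and 0 had an unadjusted p under 0.05. Groups did not overlap for 0 members, against 21.7% of all genes. The median log2 fold change was -0.24 (-0.65 to 0.34), with 3 positive and 7 negative estimates and standard errors of 1.05 to 1.32. Without LAM replicate 2 the median was 0.52, with 9 positive, and without LAM replicate 3 it was -0.76, with all 10 negative. Leaving out the other libraries in turn gave medians between these. DCA minus LAM in the score was 0.20, -1.13 and 1.33 in lanes 1, 2 and 3.

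Antioxidant and peroxide treatments likewise left the members uncalled. In SNA_NAC against SNA_Saline, edgeR called 0 of the 10 (0% of all genes), 0 had an unadjusted p under 0.05, and groups did not overlap for 0 against 14.9% of all genes. All 10 estimates were negative, with a median of -0.84 (-1.12 to -0.44), and without SNA_Saline replicate 3 the median was 0.18 with 8 positive, while without SNA_Saline replicate 2 it was -1.32. In Sham_H2O2 against Sham_Saline, 0 were called (0% of all genes), 0 had an unadjusted p under 0.05, and groups did not overlap for 0 against 5.43% of all genes. Its median was -0.59 (-1.80 to 0.05) with 9 negative estimates. Without Sham_Saline replicate 2 the median was 2.36, with all 10 positive, 8 at an unadjusted p under 0.05 and 0 called, while without Sham_H2O2 replicate 2 it was -1.43 with all 10 negative. By lane, Sham_H2O2 minus Sham_Saline in the score was -0.68, -1.27 and 4.64.

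The surgical controls were set against each other, and sciatic surgery against spinal surgery. In Sham_Saline against LAM, 0 of the 10 members were called by edgeR (0.0699% of all genes), and groups did not overlap for 0 against 30.6% of all genes. At an unadjusted p under 0.05 the edgeR count was 1, Ckm, with an adjusted p of 0.157. All 10 estimates were positive, with a median of 1.36 (0.55 to 2.94), while the difference in the score was -0.26, the opposite sign. Leaving out Sham_Saline replicate 2 turned all 10 negative, with a median of -1.55, and leaving out LAM replicate 2 gave a median of 2.03. For the mean of the 4 sham and sciatic injury groups, called sciatic here, against the mean of LAM and DCA, edgeR called 0 members (3.66% of all genes), 0 had an unadjusted p under 0.05, and groups did not overlap for 0 against 0.413% of all genes. The median there was 0.44 (-0.12 to 0.75), -0.33 without Sham_Saline replicate 2 and 0.79 without LAM replicate 2.

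The change after sciatic injury was also set against the change after spinal injury, each relative to its own control. For this difference edgeR called 0 of the 10 members (1.61% of all genes), with 0 at an unadjusted p under 0.05. Its median was -1.19 (-3.05 to -0.61), 1.67 without Sham_Saline replicate 2 and -2.35 without SNA_Saline replicate 3. A test of any difference among the 6 groups called 0 members (3.94% of all genes), with edgeR adjusted p-values of 0.329 to 0.809 and 0 unadjusted p under 0.05. Standard errors of the members were above 1 in log2 for each pair of groups, and 0.64 to 0.82 for sciatic against spinal surgery.

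Relative to one another the members were far steadier than their absolute levels. Over the 45 pairs of members, the SD of the log2 ratio across libraries was 0.20 to 0.78 (median 0.52), while the SD of single members was 1.40 to 1.91. In FPKM, the deposited unit that divides by gene length, median levels were 23.6 for Tnnt3, 16.5 for Tnnc2, 16.03 for Mylpf, 11.5 for Acta1 and 9.09 for Tnni2. Below them came Ckm at 4.51, Mb at 3.89, Myh4 at 2.72, Myh1 at 2.67 and Actn3 at 2.08 FPKM. Tnnt3 made up 16.04% to 31.1% of the members' summed FPKM and Acta1 8.88% to 21.7%.

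Composition did shift between libraries in places. Ckm made up 2.58% of the summed FPKM in Sham_H2O2 replicate 3 and 11.9% in Sham_Saline replicate 2, the library with most muscle RNA. The CPM ratio of Ckm to Tnnt3 was 0.734 in Sham_Saline replicate 2, 0.308 in Sham_H2O2 replicate 2 and 0.0897 in SNA_Saline replicate 2, the last on 7 counts of Ckm and 78 of Tnnt3. It was not ordered by level alone, since Sham_Saline replicate 3, the lowest library, had 0.381 on 8 counts of Ckm and 21 of Tnnt3, and Sham_H2O2 replicate 3, the fifth highest, had 0.0934. Myh1 made up the smallest share in Sham_Saline replicate 2, 1.32%, and the largest in DCA replicate 2, 4.89%.

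The balance of the IIb and IIx heavy chains also differed between libraries. Myh4 held 32.5% of the counts of Myh1 and Myh4 together in SNA_NAC replicate 3 (95% exact binomial interval 29.1% to 36.0%) and 72.2% in Sham_Saline replicate 2 (71.1% to 73.2%). The highest share, 76.0% in SNA_Saline replicate 2, rested on 57 counts of Myh4 and 18 of Myh1 (64.7% to 85.1%). Group means were 56.1% ± 15.4 in Sham_Saline, 63.4% ± 13.8 in SNA_Saline, 45.8% ± 11.5 in SNA_NAC, 45.9% ± 9.19 in Sham_H2O2, 54.7% ± 10.8 in LAM and 39.9% ± 9.20 in DCA (SD, n = 3 each). Sorted by their means, neighbouring groups differed by less than the larger of their SDs. The highest and the lowest, SNA_Saline and DCA, differed by more than either of their SDs. Differences between groups in this share were not tested.

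Other genes of skeletal muscle were described from 7 lists with 80 genes, of which 64 were in the count table. Of these, 46 were highest in Sham_Saline replicate 2, as were 26.6% of all genes, and 31 were lowest in Sham_Saline replicate 3, as were 4.18% of all genes. The correlations with the score that follow are descriptions over the same 18 libraries, which share depth and scaling. Most filament and Z-disc genes and 6 of 11 calcium-handling genes had an r with the score above 0.9. The median r was 0.92 for 16 genes of the thick and thin filament, 0.94 for 9 of the Z-disc and cytoskeleton and 0.91 for 11 of excitation-contraction coupling, with 12, 6 and 6 of them above 0.9.

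Filament genes with the steepest swings included Myl1, the fast essential light chain, at 19.6, 134.4 and 1.83 CPM in Sham_Saline replicates 1, 2 and 3. Mybpc2, the fast myosin-binding protein C, stood at 3.57, 37.9 and 0.746 CPM in those libraries, and Tpm2, beta-tropomyosin, at 17.9, 119.3 and 11.9. Tpm1, which many cell types express, moved far less, from 361 to 484 and 341 CPM. At the Z-disc, Myoz1 stood at 3.19, 30.2 and 0.339 CPM and Tcap, which caps titin, at 1.53, 22.95 and 0.204. Ldb3, a Z-disc scaffold, was at 15.2, 30.7 and 11.5 CPM (r = 0.82), and Smpx at 8.72, 9.90 and 6.04 (r = 0.57).

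Atp2a1, the calcium pump of the fast sarcoplasmic reticulum, reached 19.4, 223 and 1.15 CPM in the 3 Sham_Saline libraries, and Casq1, which stores calcium there, 8.72, 48.9 and 6.11. Pvalb, a calcium buffer of fast fibres that is also a known gene of proprioceptive sensory neurons, stood at 111.0, 312 and 131.5 CPM and kept a high floor of 97.0 CPM over all libraries (r = 0.79). Srl, sarcalumenin, was at 14.2, 26.5 and 7.94 CPM (r = 0.91). Exceptions in this list were Casq2, the cardiac calsequestrin, at 2.22 to 4.93 CPM over the 18 libraries (r = -0.09), and the junctophilins Jph1 (0.68) and Jph2 (0.76).

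Energy genes had a median r of 0.86 over 13 genes, from 0.21 for Phka1 to 0.97. Eno3, muscle enolase, tracked the members (11.1, 78.5 and 8.42 CPM in Sham_Saline; r = 0.90), while Pfkm, also used by neurons, was at 189.3, 320.6 and 207 CPM. Fabp3, a fatty acid-binding protein of heart and muscle, was at 31.5, 54.9 and 38.3 CPM in those libraries (r = 0.41), and Cox7a1, the muscle isoform of a cytochrome oxidase subunit, at 2.192, 8.591 and 4.004 (r = 0.68). Fbp2 and Ucp3 also had a low r, 0.25 and 0.33.

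Slow, developmental and myogenic lists had lower median correlations with the score, with exceptions among their genes. The 5 measured slow-fibre genes had a median r of 0.09, and their summed level, mostly Tpm3, varied 1.28-fold, from 64.2 to 82.5 CPM. Tnnc1, slow troponin C, was at 0.581 to 2.26 CPM and Myl2, the slow regulatory light chain, at 0.216 to 2.79. Tnni1, slow troponin I, was at 0.715, 2.57 and 1.83 CPM in Sham_Saline replicates 1, 2 and 3. The 4 developmental and cardiac genes had a median r of 0.40, and their summed level was highest in Sham_Saline replicate 2, at 6.44 CPM, over a 3.97-fold range. Myh8, the perinatal heavy chain, was highest in Sham_Saline replicate 2 (1.68 CPM) and lowest in replicate 3 (0.475 CPM; r = 0.72), as the members were. Actc1, cardiac actin, was also highest in Sham_Saline replicate 2, at 2.82 CPM, with 0.271 in replicate 3 (r = 0.55). Nppa and Myh6, a cardiac hormone and a cardiac heavy chain, were highest in Sham_Saline replicate 3 instead, both at 1.09 CPM. The 6 genes of the myogenic, junction and atrophy list had a median r of 0.04, but Trim63, a ubiquitin ligase of muscle atrophy, was at 2.70 CPM in Sham_Saline replicate 2 and lowest in replicate 3, at 0.0679 (r = 0.64). In the FPKM table, which also lists genes left out of the count table, Myh7, the slow heavy chain, was listed at 0 in 10 libraries, Myod1 in 14 and Myog in 13. Myf6, the myogenic factor of adult fibres, was highest in Sham_Saline replicate 2 at 0.569 FPKM.

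Only 1 of the 64 other muscle genes passed a test, and it did so apart from the members. Over all genes, edgeR called 2.73% in SNA_Saline against Sham_Saline, 3.66% in sciatic against spinal surgery and 3.94% among the 6 groups. A count of 1 in 64 is below each of these shares. Mstn, which encodes myostatin, a secreted brake on muscle growth, was at 0.572, 0.8001 and 0.543 CPM in Sham_Saline, 2.31, 1.73 and 1.78 in SNA_Saline, and 1.87, 3.38 and 2.49 in SNA_NAC. It was at 0.647, 1.09 and 1.43 CPM in Sham_H2O2, 0.932, 0.488 and 0.705 in LAM and 0.942, 0.768 and 1.05 in DCA, on 5 to 79 counts per library. All 6 libraries with nerve injury lay above all others. The rise in SNA_Saline over Sham_Saline was 1.58 in log2 (standard error 0.31, edgeR adjusted p = 0.00847), and the call was lost without SNA_Saline replicate 1 (adjusted p = 0.0728) and with only these groups in the fit (adjusted p = 0.109). Mstn also passed edgeR's test for any difference among the 6 groups (adjusted p = 0.000765). For sciatic against spinal surgery it was at 0.76 in log2 (standard error 0.19, edgeR adjusted p = 0.0398), but the call was lost with the replicate block (adjusted p = 0.0701) and in 14 of 18 fits that left out 1 library (adjusted p 0.0265 to 0.146 over the 18). Its r with the muscle score was -0.06.

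**Figure D4:**
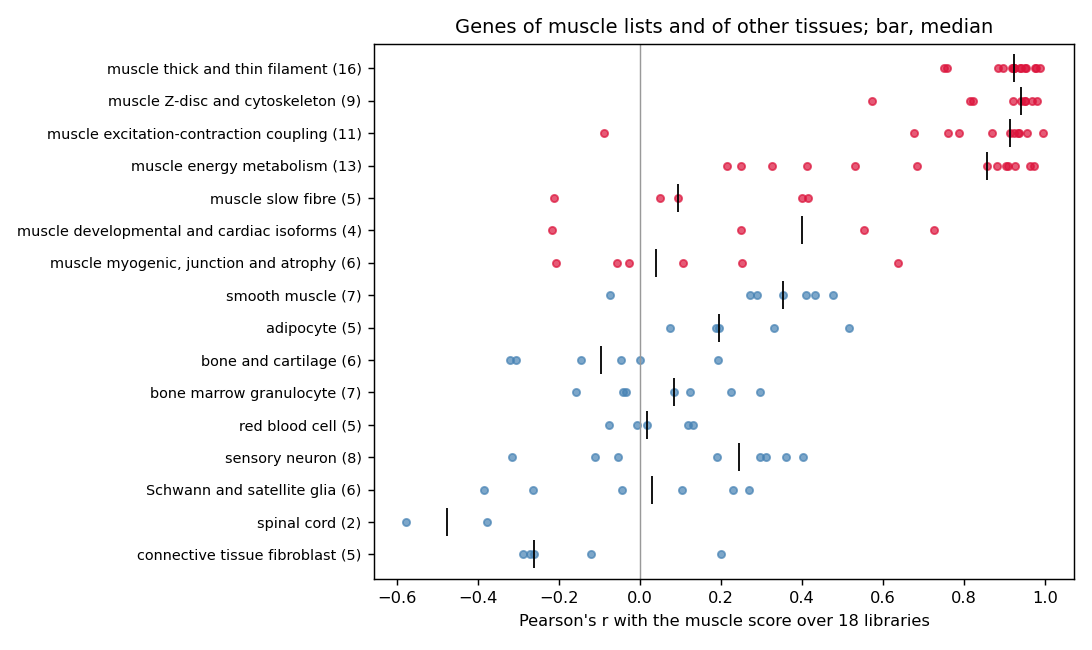
Pearson's r between each gene's log2 CPM and the muscle score over 18 libraries, for genes of 7 muscle lists (red) and of other tissues and cell types (blue); each point is 1 gene, each bar a list's median, and the number measured is in brackets. Medians lie at 0.86 to 0.94 for the first 4 muscle lists and between -0.48 and 0.40 for all the others.

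Markers of the sampled tissue and of other tissues near a dissection were examined beside the muscle genes. Sensory neuron markers summed to 6382 to 10895 CPM and markers of Schwann and satellite glia to 5614 to 8835 CPM, ranges of 1.71-fold and 1.57-fold against 166-fold for the members. The summed sensory neuron level was highest in Sham_Saline replicate 2. Red blood cell genes spanned 164.4 to 840 CPM, with 776.5 and 840 CPM in Sham_Saline replicates 2 and 3, the libraries at opposite ends for muscle. Smooth muscle markers spanned 62.3 to 174.2 CPM and were also highest in Sham_Saline replicate 2, with a median r of 0.35 over 7 genes. Median r was 0.20 for 5 adipocyte genes, -0.10 for 6 of bone and cartilage, 0.08 for 7 of marrow granulocytes, -0.48 for 2 of spinal cord and -0.26 for 5 of fibroblasts. Any part of these tissues in the level of the members was not tested.

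Genes whose pattern was most like that of the members were ranked by Pearson's r with the score over 18 libraries, among 12981 genes with a mean count of at least 50. The first 10 were Atp2a1 (r = 0.99), Ube2c (0.99), Mybpc2 (0.99), Myoz1 (0.98), Ckmt2 (0.97), Tcap (0.97), Gm12300 (0.97), Pygm (0.96), Ryr1 (0.96) and Myl1 (0.95). Ckmt2 is the mitochondrial creatine kinase of muscle, Pygm the muscle glycogen phosphorylase and Ryr1 the calcium release channel. Of these 10, 8 belonged to the muscle lists, and of the 28 genes with r above 0.9, 23 did. Without Sham_Saline replicates 2 and 3 the count above 0.9 was 26, of which 25 were among the 28.

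Ube2c and Gm12300 were the exceptions among the first 10. Ube2c encodes a ubiquitin-conjugating enzyme of mitosis and lies at chr2:164769898-164778822 on the plus strand, where it overlaps Tnnc2 on the minus strand. The overlap covers 74.0% of the exonic bases of Tnnc2 and 22.8% of those of Ube2c. Counts of Ube2c exceeded those of Tnnc2 in 18 of 18 libraries by 2 to 52 (median 25), and the slope of Ube2c on Tnnc2 in CPM was 1.00. The remainder, Ube2c minus Tnnc2, was 0.318 to 2.352 CPM with a median of 1.45. Over 13 other cell cycle genes, picked after these values were seen, r with the score ran from -0.44 to 0.30, and 1 of them was highest in Sham_Saline replicate 2.

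**Figure D5:**
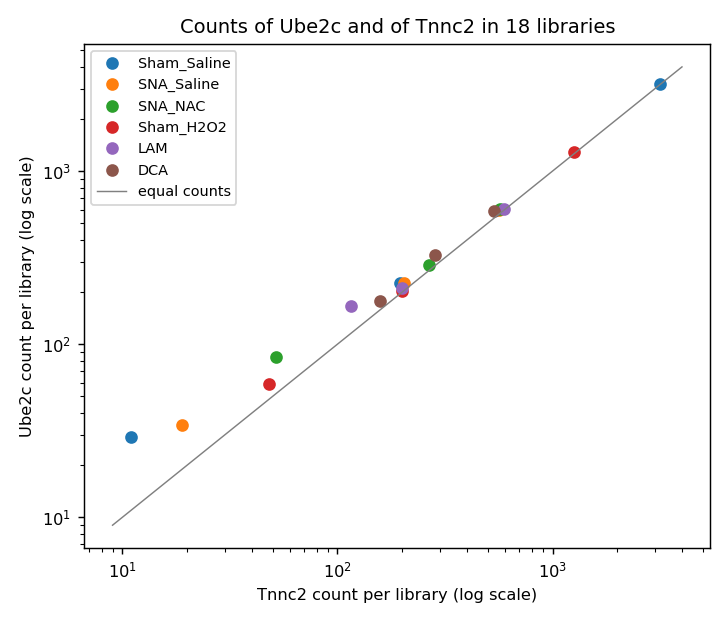
Counts of Ube2c against counts of Tnnc2 per library (both axes log), coloured by group, with a line at equal counts. All 18 points lie above the line, by 2 to 52 counts, and follow it from the lowest to the highest muscle library.

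Similar partners occurred at other muscle genes. Gm12300, named Myhas in GENCODE M21, is an antisense gene at chr11:67211256-67237573 that overlaps exons of Myh1, and it spanned 0.0679 to 21.01 CPM. A930016O22Rik lies antisense to Ckm and shares 451 exonic bases with it, and its slope on Ckm in CPM was 0.39 (r = 0.98 in log2 over the 18 libraries). Rabep2, an endosomal trafficking gene, overlaps Atp2a1 on the opposite strand by 763 exonic bases. It stood at 13.7, 102.9 and 8.14 CPM in Sham_Saline replicates 1, 2 and 3, with a slope of 0.43 on Atp2a1. The libraries were made with a stranded kit, but whether the counting used strand is not given in the sources used here, so the values of Ube2c, Gm12300, A930016O22Rik and Rabep2, and those of Tnnc2, Myh1 and Ckm, are uncertain where these genes overlap.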

How the data were processed

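Gene expression was measured by single-end RNA sequencing in 18 libraries, 6 to a lane. The authors deposited raw counts per gene, whole numbers for 15730 genes whose lowest mean over samples was 10.1, and FPKM values for a larger set of features. Per the submitters' processing notes, TopHat2 2.0.12, Bowtie2 2.2.3, SAMtools 0.1.19 and HTSeq 0.6.0 were among the tools and mm10 was the build. Which annotation was used, and whether counting used strand, is not given in the sources used here. For the members the deposited FPKM equals the count times a factor per gene and one per library, within 0.0018 in log2.

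The test was edgeR's quasi-likelihood one (edgeR 4.0.16, R 4.3.3; TMM, filterByExpr), with every sample in a single unblocked model, with Benjamini-Hochberg adjustment over all genes and a threshold of 0.05. CPM follow TMM, and a prior count of 2 was added before taking log2. With 3 samples a group an exact permutation test of one value cannot go below 0.1, so none was run. The members and lists were chosen with earlier results of these data known, so no test over a list was made. Named genes were all members, up to 4 genes of each muscle list with the highest mean FPKM, any that passed a test, and the 10 most like the score; other genes named were picked after their values were seen. Alternatives were DESeq2 1.42.0, limma 3.58.1 on log2(FPKM + 1) and log2(FPKM + 0.1), other filters, only the groups compared, the replicate block, a threshold of 0.10, other scores and leaving out each library. The main filter removed no gene, so the alternative with no filter repeated the main fit. Same-numbered samples are different mice of one lane, and their deviations from group means correlated at -0.65 to 0.56 (mean -0.03, 45 pairs), so the numbers were not taken as pairs. On simulated data with 15726 genes and the contrast SNA_Saline against Sham_Saline, the fit recovered 50 of 50 genes changed by 2 in log2, 39 of 50 changed by 1, 21 of 50 by 0.58 and 32 of 50 by -1, with 11 false calls among 153. The changed genes were drawn at random, and the members vary far more (biological coefficient of variation 83.7% to 105%, 17.4% in common). These recoveries thus do not say how large a change in the members would be called. Replicates of a group all differed beyond counting noise (chi-square per degree of freedom at least 4.11). Figures were drawn with matplotlib 3.10.9.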

Additional observations from a re-analysis of the deposited data

How the results depend on the processing

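The count of members called was 0 in all 8 comparisons under every alternative run. With at least 10 counts in every sample only 8 members were tested, without Ckm and Mb. The lowest adjusted p of a member was 0.0546 (edgeR), for Ckm in Sham_Saline against LAM without Sham_Saline replicate 1. In that fit 3 members had an unadjusted p under 0.05. The direction of the members' fold changes in each comparison that uses Sham_Saline rested on its replicate 2. Leaving out 1 library at a time, the log2 fold change in SNA_Saline against Sham_Saline ran from -3.61 to 1.16 for Acta1, -4.19 to 1.43 for Ckm, -2.51 to 1.65 for Myh4, -1.94 to 1.66 for Tnnt3 and -2.36 to 0.91 for Myh1. Without Sham_Saline replicates 2 and 3, an alternative added after the data were seen, these were 0.35, 0.67, 0.83, 0.82 and 0.041, with the lone Sham_Saline library assumed to vary like the other groups. With limma on log2(FPKM + 0.1) Myh4 was at 0.10 and Tnnt3 at 0.45, and with log2(FPKM + 1) Tnnt3 was at 0.23. With log2(FPKM + 0.1) the median over members there was -0.24, and it turned sign in DCA against LAM, Sham_H2O2 against Sham_Saline, Sham_Saline against LAM and sciatic against spinal surgery, to 0.08, 0.86, -0.30 and -0.24. The replicate block gave -1.41 for Acta1, -1.41 for Ckm, -0.97 for Myh4, -0.36 for Tnnt3 and -0.48 for Myh1, with a median of -0.65 over the 10 members, and changed no call of a member. In DCA against LAM the block moved the median to 0.041. It moved the calls over all genes in SNA_Saline against Sham_Saline from 430 to 320. The share of the score's variance between groups ran from 3.68% to 30.4% without 1 library and was 16.4% without Sham_Saline replicates 2 and 3. Counts of other muscle genes called moved as follows. In SNA_Saline against Sham_Saline the 1 call became 0 with at least 10 counts in every sample, which removes Mstn, and 0 with only the groups compared, and ran from 0 (without SNA_Saline replicate 1) to 2 (without Sham_Saline replicate 1). In sciatic against spinal surgery the 1 call became 2 with DESeq2, with limma on log2(FPKM + 1) and at an adjusted p under 0.10, and 0 with at least 10 counts. The gene called was Mstn, and with the replicate block it was Fbxo32 instead (Mstn adjusted p = 0.0701), as it was without DCA replicate 3, Sham_H2O2 replicate 3 or Sham_Saline replicates 2 and 3, while without SNA_Saline replicate 3 it was Fbp2. Mstn was called in 4 of the 18 fits without 1 library. The count without 1 library ran from 0 to 2, at 2 without Sham_Saline replicate 1 and at 0 without Sham_Saline replicate 2, SNA_Saline replicate 1 or 2, any LAM library, DCA replicate 1 or 2, Sham_H2O2 replicate 2 or SNA_NAC replicate 2 or 3. For the difference between injuries it went from 0 to 3 at 0.10 and from 0 to 7 without 1 library (7 without Sham_Saline replicate 1, 1 without Sham_H2O2 replicate 3). For any difference among the 6 groups it was 2 with DESeq2, 0 with at least 10 counts, 1 to 2 without 1 library (2 without Sham_Saline replicate 1 or 2) and 2 without Sham_Saline replicates 2 and 3. In Sham_Saline against LAM it ran from 0 to 8, the 8 arising without Sham_Saline replicate 1, when 5009 genes in all were called. The fit with only the groups compared was not run for sciatic against spinal surgery, which uses all of them. With 137 member counts in the lowest library and 5 to 21 counts for a single member there, ratios between members in that library are limited by depth.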
